A study of Mus musculus with 18 samples.

Results

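The 7 genes described here encode the voltage-gated sodium channel subunits that neurons of the central nervous system express: the alpha subunits Scn1a, Scn2a, Scn3a and Scn8a and the beta subunits Scn2b, Scn3b and Scn4b. They were taken by symbol from the gene table deposited with the counts, and all 7 were found among its 55573 genes. RNA was measured in spinal dorsal horn (DHSC) of C57BL/6J mice aged 8 to 12 weeks, ipsilateral to a left hind paw injected with 2% formalin at 8 µl per 20 g of body weight, in lumbar segments L3 to L5, at 2 h post-injection. The 18 samples comprised 6 males, 6 F1/proestrus females, which had a short-lasting interphase between the phases of pain behavior, and 6 F2/metestrus females, which had a long-lasting interphase. All mice received formalin and no uninjected group was analysed here, so the values describe differences between injected mice and not an effect of formalin. The female groups joined a behavior with a stage of the estrous cycle, and these cannot be told apart.

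A voltage-gated sodium channel opens when the membrane depolarizes, lets sodium into the neuron and so carries the rising phase of the action potential. Its large alpha subunit forms the pore, the voltage sensors and the inactivation gate. The beta subunits are small proteins with a single membrane span and an immunoglobulin-like outer domain, and they change gating, bring channels to the surface and bind adhesion molecules. In spinal cord, channels are gathered at the axon initial segment and the nodes of Ranvier by ankyrin-G and its partners, and pain pathways depend on them from the peripheral terminal to the dorsal horn.

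Total counts were between 73590509 and 125724156 per sample, and the smallest count of any of the 7 genes in any sample was 1790, so counting error was small beside the spread between samples. The columns of the deposited counts carry numbers. These formed a first series (27 to 35, replicates 1 to 3 of each group) and a second series (188 to 196, replicates 4 to 6), with 9 samples each. They are called library series here, though the column headers do not say what the numbers stand for. Library F1/proestrus 5 stood apart in dorsal root ganglion neuron markers, whose summed level over 7 genes was 482.2 CPM (counts scaled to the library total), against 3.27 to 6.09 CPM in the other 17 samples. Library Male 5 had the highest sum of 5 Schwann cell markers (4477 CPM, with Male 6 next at 2641) and the lowest sum of 7 motor neuron markers (25.95 CPM). All 12 neuron, 5 astrocyte and 6 oligodendrocyte markers were found in every sample. The methods call the samples of a group biological replicates, and the labels give each a number.

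Scn1a, Scn2a and Scn3a lie in the same region of chromosome 2 (GENCODE M21 on GRCm38), at chr2:66270778-66440840 on the minus strand, chr2:65620771-65767447 on the plus strand and chr2:65457118-65567627 on the minus strand. Scn8a lies apart at chr15:100869858-101045938 (plus). The beta genes are all on the plus strand of chromosome 9, with Scn2b (chr9:45117782-45130070) and Scn4b (chr9:45138395-45154152) next to each other and Scn3b at chr9:40269217-40291618. The coding sequences of Scn1a, Scn2a and Scn3a were 81.6% to 83.6% identical in pairs, and Scn8a was 73.8% to 74.2% identical to each of them. The beta coding sequences shared 51.4% to 55.7% of aligned bases.

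A read that matches several genes equally is lost where only uniquely mapped reads are counted, as here. Stretches of sequence shared with another gene made up a small part of each subunit gene. Of all 50-base windows in the transcripts, 4.03% in Scn1a, 5.76% in Scn2a and 6.49% in Scn3a also occurred in another gene. The share was 0.0374% in Scn8a and 1.01% in Scn2b, and no window of Scn3b or Scn4b was shared. With 100-base windows the shares were 0.876%, 1.03% and 2.22% for Scn1a, Scn2a and Scn3a, and the other 4 genes shared none. The read length is not given in the sources used here, so how many reads of Scn1a, Scn2a and Scn3a were lost in this way was not measured. Opposite-strand genes overlap the bodies of Scn1a, Scn3a, Scn2b and Scn3b but share 0 exon bases with them.

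The levels of the 7 genes were ordered first, since the paralogs differ in where and when they are used. On a scale of CPM per kb of exons, Scn4b was highest at 76.6 ± 5.88 (SD, n = 18), and 97.2% of all tested genes lay below it. Scn4b encodes the beta subunit linked by a disulfide bond to its alpha partner and known for supporting resurgent current. Scn1a (Nav1.1 channel), known for sustaining firing of inhibitory interneurons and for epilepsy when it is lost, followed at 25.25 ± 3.8 CPM per kb. Scn8a (Nav1.6), the main channel of mature initial segments and nodes, was next at 13.48 ± 1.88. Scn3b was at 8.32 ± 0.653, Scn2b at 6.55 ± 0.629 and Scn2a (Nav1.2), a channel of unmyelinated and immature axons, at 6.48 ± 1.02 CPM per kb. Scn3a (Nav1.3), which is mainly embryonic in rodents, was lowest at 2.54 ± 0.428, close to the median of all tested genes.

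**Figure D1:**
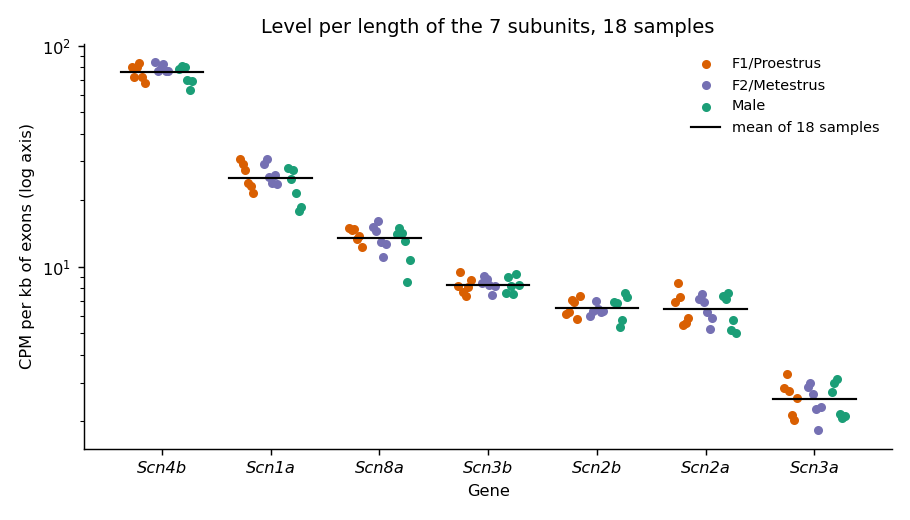
Level of each subunit in CPM per kb of exons (vertical log axis) for the 18 samples (points, coloured by group), with the mean as a black line. Scn4b lay at 63.3 to 84.2 and Scn3a at 1.82 to 3.28, while the points of Scn2b and Scn2a overlapped.

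Neighbours in this order were compared within each sample with an exact sign-flip permutation test (two-sided), with p-values adjusted over the 6 pairs. Scn4b was 3.06-fold above Scn1a in 18 of 18 samples (adjusted p = 1.144e-05), and Scn1a was 1.87-fold above Scn8a in 18 of 18 (adjusted p = 1.144e-05). Scn8a exceeded Scn3b by 1.61-fold in 17 of 18 samples (exact permutation adjusted p = 1.831e-05), and the exception was Male 5. Scn3b was 1.27-fold above Scn2b, and Scn2a was 2.56-fold above Scn3a, each in 18 of 18 samples. Only Scn2b and Scn2a did not differ beyond their spread (1.02-fold, Scn2b higher in 10 of 18 samples, exact permutation adjusted p = 0.7225). The order depends on the length used. With the longest transcript Scn2a stood above Scn2b (1.401-fold, 17 of 18 samples). With coding length the order of means was Scn4b, Scn3b, Scn2b, Scn1a, Scn8a, Scn2a and Scn3a. There Scn2b and Scn1a did not differ beyond their spread (1.02-fold, 9 of 18 samples, exact permutation adjusted p = 0.7236). Scn4b was highest and Scn3a lowest under all 3 lengths.

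Of the summed alpha level per kb, Scn1a took 52.8% ± 2.14, Scn8a 28.3% ± 1.97, Scn2a 13.6% ± 1.2 and Scn3a 5.31% ± 0.537 (SD, n = 18). Scn4b took 83.7% ± 1.77 of the summed level of the 3 beta genes, Scn3b 9.14% ± 1.02 and Scn2b 7.19% ± 0.943. Each share was tested between the sexes and between the female groups by exact permutation, 14 tests in all, and none passed after adjustment (smallest adjusted p = 0.5075). The smallest unadjusted value was that of Scn3a, at 5.67% ± 0.402 in 6 males and 5.14% ± 0.520 in 12 females (exact permutation p = 0.04794). No difference in the mixture of subunits was thus found beyond the spread between samples.

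Of other sodium channel genes, Nalcn, the sodium leak channel, was at 7.67 CPM per kb, Scn7a at 3.18 and Scn9a at 0.726. Scn4a, the skeletal muscle channel, was near the floor at 0.0140 and was not tested. Scn10a and Scn11a, channels of sensory neurons, had 0 to 17 and 0 to 25 counts per sample outside library F1/proestrus 5, which had 14289 and 6527.

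The first comparison asked whether F2/metestrus and F1/proestrus females differed. Of the 7 genes 0 passed edgeR's quasi-likelihood test at an FDR of 5%, against 0.0% of all 24042 genes tested. At an unadjusted p under 0.05 there were 0 of the 7 and 596 genes in all (2.48%), and DESeq2 called 2 genes, neither of them a subunit.

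Scn1a was at 240.1, 287.0 and 342.2 CPM (lowest, median and highest) in F1/proestrus and at 265.8, 287.4 and 343.4 CPM in F2/metestrus. Scn2a ranged from 69.54 to 107.2 CPM (median 81.6) against 66.38 to 95.87 (median 83.95). Scn3a was at 25.34 to 40.85 CPM (median 32.98) in F1/proestrus and at 22.70 to 37.07 (median 31.08) in F2/metestrus. In each of these alpha genes the ranges lay on top of each other. Scn8a spread from 194.6 to 236.7 CPM (median 225) and from 175.8 to 255.3 (median 216.8). The log2 fold changes of the alpha genes (F2/metestrus over F1/proestrus) were 0.03 for Scn1a, -0.02 for Scn2a, -0.06 for Scn3a and -0.03 for Scn8a. The widest 95% interval, that of Scn3a, ran from -0.34 to 0.22, and that of Scn8a from -0.20 to 0.15, so changes within those bounds could not be told from none.

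The beta genes were measured with a smaller spread. Scn4b was at 338.3 to 414.9 CPM in F1/proestrus and at 384.4 to 419.7 in F2/metestrus, with medians of 381.1 and 390.2. Its log2 fold change of 0.06 (95% interval -0.05 to 0.18) was the largest upward one of the 7 and did not pass. Scn2b, a disulfide-linked subunit that brings channels to the surface, was at 27.18 to 34.58 CPM against 28.01 to 32.67, a log2 difference of -0.05. Scn3b, a non-covalently bound subunit, was at 40.23 to 51.81 CPM against 40.66 to 49.80, a difference of 0.02.

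**Figure D2:**
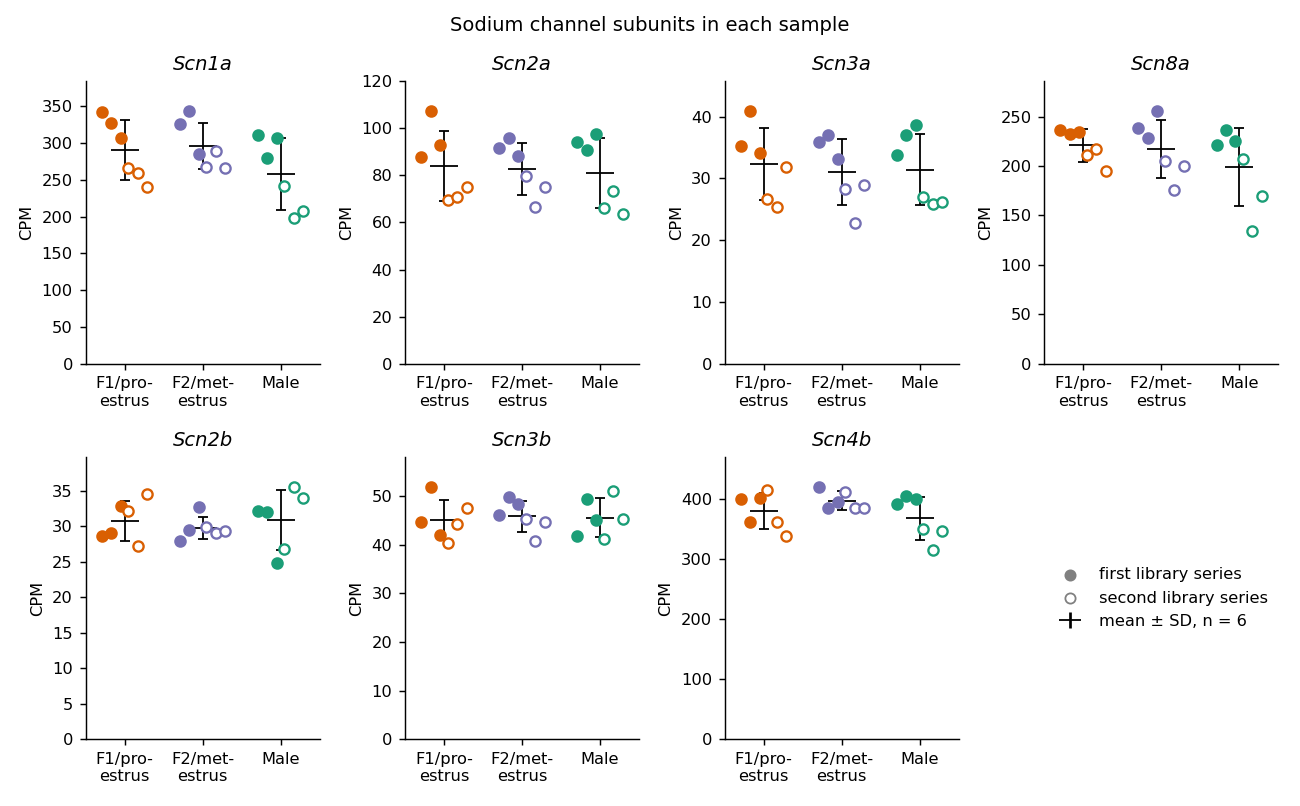
CPM of the 7 subunits in each of the 18 samples by group, with filled points for the first library series, open points for the second, and the mean ± SD of each group (n = 6) in black. Group means were close, while open points of Scn1a, Scn2a, Scn3a and Scn8a sat below filled ones in most groups.

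Males were then compared with all females. Among the 7 genes 0 were called, and over 24862 genes tested 49 were called (0.197%), 37 of them higher in males (0.149%) and 12 lower (0.0483%). At an unadjusted p under 0.05 there were 0 of the 7 and 9.72% of all genes. Scn1a was at 198.8, 260.5 and 311.1 CPM (lowest, median and highest) in males and at 240.1, 287.4 and 343.4 CPM in females. The 2 lowest of the 18 values were Male 5 (198.8) and Male 6 (208.2), and the other 4 males lay inside the female range. The log2 difference of Scn1a was -0.19 (95% interval -0.39 to 0.01, edgeR adjusted p = 0.538). Scn8a ran from 134.6 to 236.3 CPM (median 214.2) in males and from 175.8 to 255.3 (median 223.0) in females, a difference of -0.14 (adjusted p = 0.639, edgeR). Male 5 and Male 6 were again the lowest samples, at 134.6 and 169.4 CPM. In bulk tissue fewer cells of a type and less RNA per cell cannot be told apart.

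Scn4b was at 315.5 to 405.2 CPM (median 370.5) in males against 338.3 to 419.7 (median 390.2) in females, a log2 difference of -0.08. The remaining genes differed by less than 0.05: Scn2a by -0.04, Scn3a by -0.01, Scn2b by 0.03 and Scn3b by 0.00. Their ranges overlapped throughout, with Scn3a at 25.91 to 38.58 CPM in males and 22.70 to 40.85 in females. Scn2b reached its highest value, 35.55 CPM, in Male 5.

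The male and female values were also compared within each library series. In the first series Scn1a differed by -0.12 (edgeR adjusted p = 0.686) and in the second by -0.29 (edgeR adjusted p = 0.253). Scn4b differed by 0.00 in the first series and by -0.18 in the second (edgeR adjusted p = 0.388), and Scn8a by -0.08 and -0.23. No gene of the 7 passed in either series, and the difference between the series was not tested. With the series as a covariate, 134 genes were called in all and still 0 of the 7, with Scn1a at -0.20 (edgeR adjusted p = 0.0816). At an unadjusted p under 0.05 that fit held 2 of the 7, Scn1a and Scn8a, and 4075 of 24862 genes. The second series alone also held 2, Scn1a and Scn4b, and 2874 of 24465 genes. Without library F1/proestrus 5 and Male 5, a choice made after seeing the data, Scn1a differed by -0.15 and Scn8a by -0.06. Male 5, the lowest sample in Scn1a and Scn8a, was also lowest in motor neuron markers and highest in Schwann cell markers. With the motor neuron score as a covariate, 0 of the 7 and 32 of 24862 genes were called between the sexes. No Schwann cell score was fitted, and the part of either set of markers in these values was not otherwise tested.

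**Figure D3:**
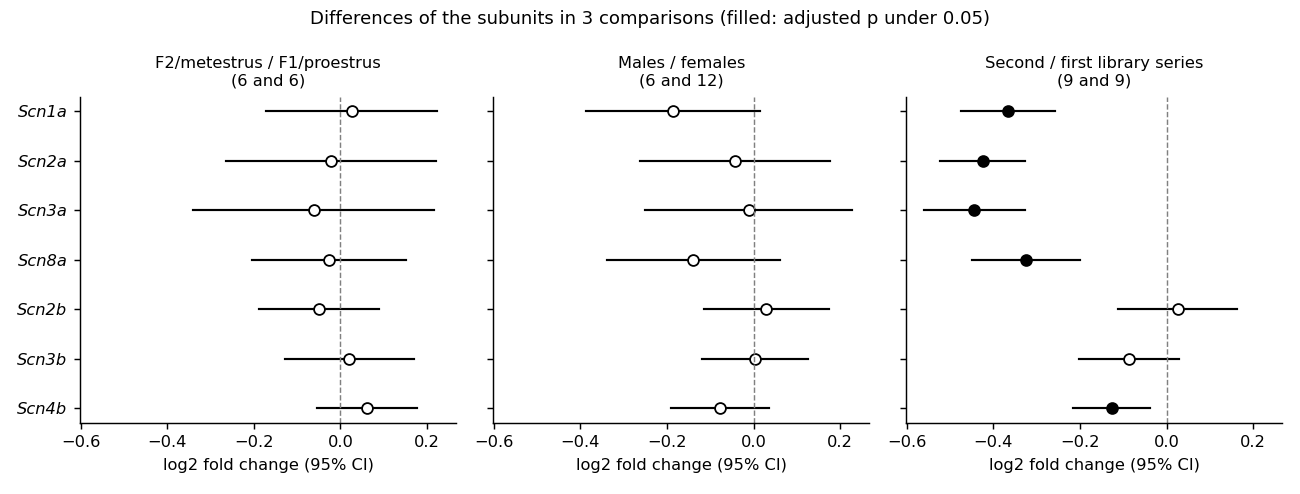
Log2 fold change of each subunit with its 95% interval (edgeR) for F2/metestrus over F1/proestrus, males over females, and the second over the first library series, with filled points for an adjusted p under 0.05. All 14 intervals of the first and second panels cross 0, and 5 of 7 in the third lie below it.

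The largest differences among these genes were between the library series. Replicates 4 to 6 were set against 1 to 3 with the group as a covariate, and 5 of 7 subunits were called, all 5 lower in the second series. Of all 24038 genes tested 27.6% were called, 15.2% lower and 12.4% higher. At an unadjusted p under 0.05 the same 5 of 7 stood against 38.2% of all genes. The labels give 1 protocol for both series, and what else differed between them is not given in the sources used here.

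The alpha genes fell in the second series. Scn2a was at 88.0 to 107.2 CPM (median 92.82) in the first series and at 63.79 to 79.55 (median 70.82) in the second. Scn3a was at 33.18 to 40.85 CPM (median 35.8) and at 22.70 to 31.89 (median 26.61). For both genes the lowest sample of the first series lay above the highest of the second. Scn2a fell by 0.42 ± 0.0470 (SE) and Scn3a fell by 0.44 ± 0.0560 on the log2 scale, with edgeR adjusted p of 2.76e-06 and 1.06e-05. Scn8a was at 221.5 to 255.3 CPM in the first series and at 134.6 to 217.3 in the second, without overlap, a fall of 0.32 in log2 (edgeR adjusted p = 0.000424). Scn1a was at 279.4 to 343.4 CPM and at 198.8 to 289.9, where only F2/metestrus 5 (289.9) of the second series reached into the range of the first. Its log2 difference was -0.37 (edgeR adjusted p = 3.75e-05). So 3 of 7 genes did not overlap between the series, against 4.21% of all genes in either direction and 2.71% in this direction.

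The same alpha genes were lower within each group, with 3 samples per series. For Scn2a, Scn3a and Scn8a the lack of overlap within all 3 groups follows from that over all samples and adds nothing to it. Scn1a lay wholly below in the second series in F1/proestrus and males. The share of all genes without overlap within a group was not counted. In males the log2 differences were -0.47 for Scn1a, -0.48 for Scn2a, -0.47 for Scn3a and -0.42 for Scn8a. The first 3 passed (edgeR adjusted p = 0.0176, 0.00999 and 0.0142), and 1198 of 24428 genes were called in that fit. In F1/proestrus the differences were -0.35, -0.42, -0.39 and -0.17 and in F2/metestrus -0.22, -0.32, -0.41 and -0.32, with none past the threshold. Those fits called 77 of 24514 and 781 of 24160 genes. Without F1/proestrus 5 and Male 5 the 4 alpha genes were still called, with log2 differences of -0.27 to -0.41. In that fit 6569 of 24367 genes were called.

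The beta genes differed less between the series, though alpha and beta genes were not tested against each other. Scn2b was at 24.83 to 32.90 CPM in the first series and 26.80 to 35.55 in the second, a log2 difference of 0.03 (95% interval -0.11 to 0.16). Scn3b was at 41.77 to 51.81 CPM and at 40.23 to 50.93, a difference of -0.09 (95% interval -0.20 to 0.03). Scn4b fell by 0.13 in log2 (edgeR adjusted p = 0.0302) from 362.1 to 419.7 CPM to 315.5 to 414.9, with wide overlap. That call was lost when any 1 of 13 samples was left out and held only without F1/proestrus 2, F1/proestrus 4, F2/metestrus 3, F2/metestrus 4 or Male 4. It was also lost without F1/proestrus 5 and Male 5 (-0.08, edgeR adjusted p = 0.179).

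The alpha genes have 11146 to 15766 bases of exons and the beta genes 4656 to 5461, and the series difference moved with exon length over all protein-coding genes of at least 5 CPM. The median log2 difference was 0.16 in 1295 genes under 2 kb, -0.02 in 3017 genes of 4 to 6 kb and -0.22 in 1332 genes of 10 kb or more. In the last class 62.5% of genes were called lower in the second series, and in the class of the beta genes 15.4%. The 4 alpha genes lay below the median of their class, Scn2a and Scn3a below its middle 50% (-0.38 to -0.09). By GC content of the transcript the medians ran from -0.09 in genes under 42% to 0.08 at 54% or more. The part of length or GC content in the fall of the alpha genes was not tested.

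**Figure D4:**
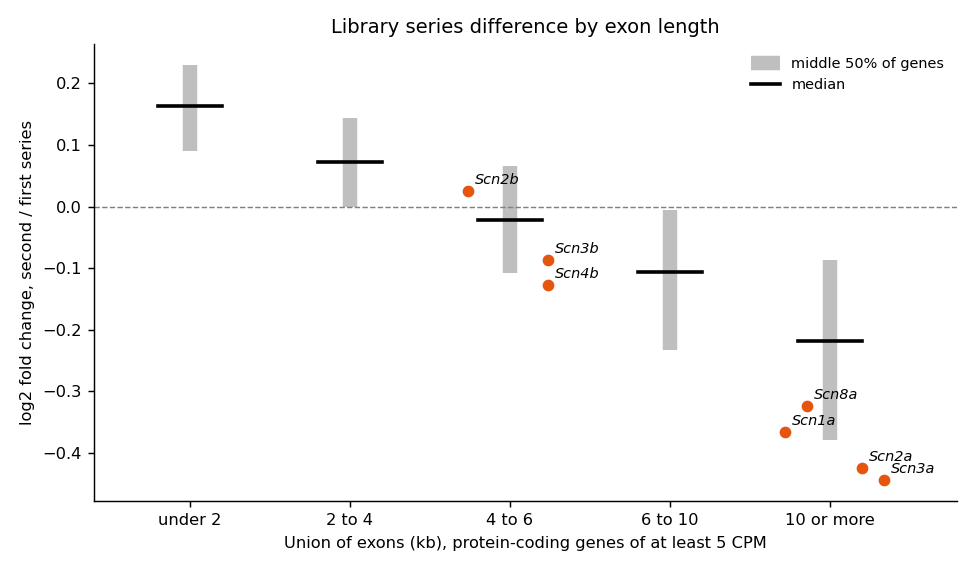
Log2 fold change of the second over the first library series (vertical axis) by length of the union of exons in kb, as the median (black) and middle 50% (grey) of protein-coding genes, with the 7 subunits in orange. Medians fell from 0.16 to -0.22 with length, and Scn1a, Scn2a, Scn3a and Scn8a lay in the longest class at -0.32 to -0.44.

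Of the cell type scores, only that of oligodendrocyte precursors differed between the series (mean of centred log2 CPM over 4 genes, 0.32 lower in the second, exact permutation adjusted p = 0.0004525), with no overlap. The neuron score differed by 0.00 (exact permutation adjusted p = 0.9101). With the neuron score as a covariate, 5 of 7 subunits and 7117 of 24038 genes were called between the series. What part the oligodendrocyte precursor markers have in the fall of the alpha genes was not tested. No score differed between the sexes or between the female groups after adjustment (smallest adjusted p = 0.119 by exact permutation, for microglia between female groups). The Schwann cell score was 0.44 higher in males (exact permutation p = 0.0189, adjusted p = 0.208).

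Genes that hold sodium channels in place or act beside them were read from a list of 14. Between the female groups and between the sexes 0 of 14 were called, with medians of 0.01 and -0.05 in log2 against 0.00 over all genes in both. Between females the smallest p belonged to Fgf13 (-0.20), Fgf11 (0.23) and Nedd4l (-0.12). Without F1/proestrus 5, the library with ganglion markers, these were -0.07, 0.23 and 0.01, and that library held the highest F1/proestrus values of Fgf13 (180.8 CPM) and Nedd4l (84.69 CPM). Between the sexes they belonged to Fgf11 (-0.31), Cntn1 (-0.13) and Fgf12 (-0.12), with adjusted p from 0.417 to 0.505 in edgeR. Fgf11, Fgf12 and Fgf13 encode intracellular factors that bind the tail of alpha subunits, Cntn1 is the adhesion protein contactin, and Nedd4l marks channels for removal.

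Between the library series 10 of the 14 were called lower and 1 higher, against 15.2% and 12.4% of all genes tested. The 14 have from 3044 (Fgf11) to 34838 (Ank3) bases of exons. Among genes of 2 to 4, 4 to 6 and 6 to 10 kb, 3.55%, 15.4% and 38.2% were called lower, and 62.5% at 10 kb or more. The median log2 difference of the 14 was -0.23 against -0.01 over all genes. Ank3, the ankyrin-G that anchors channels, was lower by 0.46 in log2 (edgeR adjusted p = 7.38e-07), Nfasc, which binds it at nodes and initial segments, by 0.37, and Sptbn4, the spectrin beneath them, by 0.29. Nrcam (-0.28), Cntn1 (-0.18), Fgf11 (-0.30), Fgf14 (-0.36), Nedd4 (-0.14) and Kcnq3 (-0.18) were also called lower. Cntnap1, the paranodal partner of contactin, was the exception at 0.35 higher (adjusted p = 0.000283, edgeR). Of the other sodium channel genes, 2 of the 5 tested were called lower and 0 higher, against the same 15.2% and 12.4%, with Nalcn at -0.48. Without F1/proestrus 5 the call of Kcnq3 was lost (-0.14, edgeR adjusted p = 0.119), and Nedd4l (-0.14, edgeR adjusted p = 0.0132) and Scn7a (-0.57, edgeR adjusted p = 0.000973) were called lower as well.

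Those other channel genes were not called between the female groups or the sexes either (0 of 7 tested each time). Scn10a and Scn11a had the smallest p between the female groups, and Scn10a, Scn11a and Nalcn (-0.22) between the sexes. For Scn10a and Scn11a the log2 differences of -8.84 and -7.16 between the female groups rested on library F1/proestrus 5, and without it they were -1.0 and -0.86. Of the central subunits in that library, Scn1a was at 258.9 CPM and Scn8a at 217.3 CPM, against 240.1 to 266.6 and 194.6 to 211.0 in the other F1/proestrus samples of its series.

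Samples were last compared by 3 neuronal scores, to see which subunits followed markers of motor neurons and of large, fast-spiking neurons. The large neuron score (Nefh, Pvalb, Spp1, Kcnc1, Vamp1 and Kcna1) left F1/proestrus 2, F1/proestrus 6, Male 5 and Male 6 apart at -0.22 to -0.18, below the other 14 samples at -0.07 to 0.16. The same 4 were lowest in summed motor neuron markers, at 25.95 to 71.01 CPM. Scn4b was at 362.1 CPM in F1/proestrus 2, 338.3 in F1/proestrus 6, 315.5 in Male 5 and 346.8 in Male 6, where the other 14 samples had 350.4 to 419.7. Scn3b was at 51.81, 47.58, 50.93 and 45.16 CPM in these 4 and at 40.23 to 49.80 in the others. Scn4b lay below the range of the other 14 in 3 of the 4 samples, and Scn3b lay above it in F1/proestrus 2 and Male 5 alone.

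Because the samples split in this way, no correlation of a subunit with a score over all 18 is given. Within the 14 samples, Scn4b and the large neuron score had r = 0.370 and rho = 0.503 (permutation p = 0.1936 and 0.06872, adjusted over 21 relations 0.5947 and 0.6875), with r = 0.273 without the 2 samples farthest from the median score. Within series it was 0.581 in 8 samples and 0.763 in 6. Scn3b had r = -0.491 and rho = -0.367 (permutation p = 0.07724 and 0.1964, adjusted 0.5795 and 0.6875), -0.448 without the 2 farthest, and -0.523 and -0.0839 within the series. The series-centred r of Scn4b in these 14 samples was 0.583. Of the 21 relations 0 passed among the 14 samples, where both the number of samples and the range of the score are smaller, and the 8 that passed over all 18 included the 4 samples apart.

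**Figure D5:**
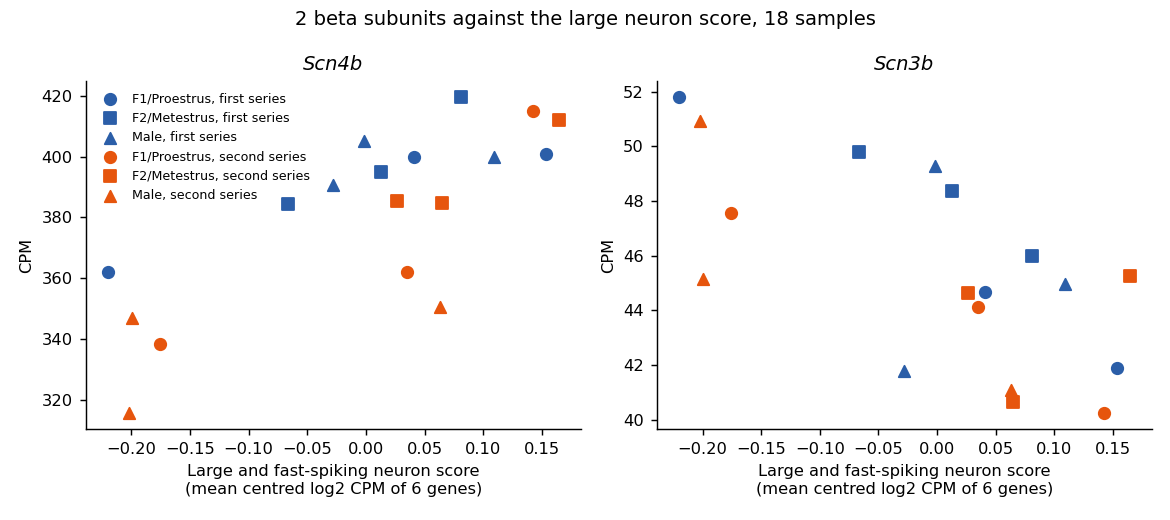
CPM of Scn4b (left) and Scn3b (right) against the large and fast-spiking neuron score (mean of centred log2 CPM of 6 genes) in 18 samples, with colour for library series and shape for group. The 4 samples at -0.22 to -0.18 carry 4 of the 5 lowest values of Scn4b, and among the other 14 r was 0.370.

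For each subunit the 3 genes with the most similar profile were read from 13509 genes of at least 5 CPM. Likeness was Pearson's r of log2 CPM over the 18 samples, after the mean of each series was taken off. The 4 samples apart in the large neuron score were among the 18, and their part in these values was not tested. Scn4b was closest to Slc4a8 (0.91), a bicarbonate transporter of neurons, Syt2 (0.88), the synaptotagmin of fast synapses, and Kcna1 (0.88), a potassium channel beside the nodes and a gene of the large neuron score. Scn1a was closest to Kifap3 (0.95), a kinesin adaptor, Stxbp5l (0.95) and Fam135b (0.94). Scn8a was closest to Ptprm (0.94), Copg1 (0.93) and Tie1 (0.92). The nearest values were lower for the other genes. Scn2a had Map2k1 (0.81), Gins3 (0.78) and Snx30 (0.78), Scn3a had Arhgef7 (0.78), Kcnh5 (0.77) and Brinp1 (0.77), Scn2b had Cnpy4 (0.86), Zfp954 (0.84) and Cited2 (0.83), and Scn3b had Tbc1d20 (0.75), Ctdsp2 (0.75) and Rims3 (0.74). No gene was nearest to 2 subunits.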

How the data were processed

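RNA-seq was done on ipsilateral DHSC in 18 samples, and the authors deposited unnormalized counts of 55573 genes. Reads were mapped uniquely to mm10 and counted over exons with featureCounts (Subread 2.0.3 in the submitters' processing notes). The methods name a TruSeq kit and the labels SMART-Seq v4 with Nextera XT. Read length, strand setting and the handling of reads over several genes are not given in the sources used here. A deposited table of the authors' own DESeq2 comparison was used only for symbols. Its fold changes, means, statistics and p-values were not used.

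Groups came from the labels. Genes were filtered (filterByExpr, minimum count 10, minimum total 15), normalized with TMM and tested with edgeR 4.0.16's quasi-likelihood test in R 4.3.3, with Benjamini-Hochberg adjustment over all genes at an FDR of 5%. F2/metestrus against F1/proestrus was fitted on 12 females, males against females on 18 samples, and replicates 4 to 6 against 1 to 3 on 18 samples with the group as a covariate. Fold changes are log2 with the 95% interval. CPM used TMM library sizes, lengths are unions of exons in GENCODE M21 on GRCm38, and log2 CPM used a prior count of 2. Shares, orders and scores were tested by exact permutation (two-sided) and correlations with 100000 permutations. DESeq2 1.42.0 and limma 3.58.1 served as alternatives. The edgeR fits were tested on simulated data with 200 genes changed. Of 1.25-fold changes 18% were recovered between the female groups, 45.5% between the sexes and 80% between the series. Of 1.5-fold changes 91%, 91.5% and 99.5% were recovered, so small differences could be missed in the first 2 comparisons.

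The subunits and lists were chosen with earlier results of these data known. Genes named besides the 7 subunits are those of 2 lists (other sodium channel genes, partners and anchors) that passed or had the 3 smallest p of their list, marker genes, and the 3 genes most like each subunit. The split into 14 and 4 samples and the analysis without F1/proestrus 5 and Male 5 were chosen after seeing the data. Dixon's test of the highest and lowest sample in 21 groups of 6 flagged no sample for the 7 genes. Each group mixed both library series, whose difference widens the range that the test divides by. It therefore says little about the alpha genes. Some genes of these lists and a sequence are not reported here.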

Additional observations from a re-analysis of the deposited data

How the results depend on the processing

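Between the female groups and between the sexes 0 of 7 subunits were called under each alternative run, those without 1 sample included. Between the library series 5 were called, 4 to 5 without 1 sample, and 0 within F1/proestrus, 0 within F2/metestrus and 3 within males alone, where only 6 samples were used. Scn4b is the gene whose call came and went (lost in 13 of 18 analyses without 1 sample, with DESeq2, its size factors, no filter, and at least 10 counts in every sample), with -0.15 to -0.08 without 1 sample. Replicate numbers did not pair samples (r of same-numbered samples -0.105 to 0.228, other numbers of the same series -0.0899 to 0.247, own number the best match in 10 of 36). With a replicate block, Scn1a differed by -0.20 and Scn8a by -0.16 between the sexes, with 148 genes called of all tested, 0 of them subunits. At an unadjusted p under 0.05 that fit held 2 subunits and 3993 of 24862 genes. Genes called between the sexes numbered 49, 25 to 77 without 1 sample (77 without F1/proestrus 5, 25 without Male 5, 30 without Male 4), 166 with DESeq2, 31 with at least 10 counts in every sample, 24 and 32 with neuron and motor neuron scores as covariates, 134 with the series as covariate, 16 and 13 in the first and second series, 13 and 22 against F1/proestrus and F2/metestrus alone, and 30 without F1/proestrus 5 and Male 5. Between the female groups DESeq2 called 2. Between the series 6637 of 24038 genes were called, and 77 of 24514, 781 of 24160 and 1198 of 24428 within F1/proestrus, F2/metestrus and males. Of 21 correlations with neuronal scores 8 passed, 4 with DESeq2 size factors, 0 within the first series, 11 within the second and 0 in the 14 samples.

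Differences near 0 changed sign, and the cause was not tested. Between the female groups these were, in log2, Scn1a -0.003004 without F1/proestrus 5 and Male 5 and -0.04024 in the first series, and Scn2a 0.02789 with limma voom, 0.009728 with the neuron score, 0.03527 with the motor neuron score and 0.03683 in the second series. Scn3a was 0.007149 with voom and 0.02061 with the motor neuron score, Scn8a 0.009548 with voom and 0.0329 in the first series, and Scn3b -0.01433 in the second. Without 1 sample the ranges were -0.02222 to 0.07922 for Scn1a, -0.07024 to 0.06324 for Scn2a, -0.1214 to 0.01944 for Scn3a, -0.07821 to 0.03003 for Scn8a and -0.009876 to 0.06702 for Scn3b. Between the sexes Scn3a was 0.001292 without both samples, 0.003607 with voom, 0.002481 in the first series and 0.007519 against F2/metestrus. Scn2b was -0.03719 without both samples, -0.01307 with voom, -0.05205 and -0.03916 with the neuron and motor neuron scores, -0.03594 in the first series and -0.002724 against F1/proestrus. Scn3b was -0.04632 without both samples, -0.004595 with DESeq2, -0.004553 with size factors, -0.001981 with no filter, -1.01e-05 with at least 10 counts, -0.006906 with voom, -0.06307 and -0.04827 with the scores, -0.07009 in the first series and -0.01879 against F2/metestrus. Scn4b was 0.004072 in the first series. Without 1 sample the ranges were -0.1116 to 0.005643 for Scn2a, -0.08841 to 0.02808 for Scn3a, -0.0232 to 0.07888 for Scn2b and -0.04181 to 0.02424 for Scn3b. Between the series Scn2b was -0.03266 within F2/metestrus and Scn3b 0.01036 within males.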
